A study of Taxus x media with 6 samples.

Results

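The genes described here are 62 assembled genes of yew twigs that stood well above the female trees in every male tree. They were chosen by the measured values themselves, out of 43846 listed genes. A member is the only listed gene of its assembly component, has at least 10 TPM (a transcript level per unit of length, scaled to one fixed total in every library) in each of the 3 male trees, and has a lowest male value at least 3 times its highest female value. The 100 genes with the highest mean over all trees were to be left out, and none of them met the other conditions. The difference between the sexes is therefore what chose the members. It is given below as a description and not as a finding.

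RNA was sequenced from twigs of Taxus x media, a hybrid yew, with 3 male trees and 3 female trees and 1 library per tree. Twigs came from independent trees kept under one regime of temperature, light and humidity, and messenger RNA was captured by its poly(A) tail. The trees differed by sex, with no treatment or introduced allele given, and the labels state neither the age nor the parentage of any tree. The series asked how taxoids, the yew diterpenoids that include paclitaxel, and their regulators differ between the sexes.

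Yews are dioecious conifers: male trees bear pollen cones, and female trees bear ovules that ripen into a seed with a fleshy aril. A twig is a mixed sample that can hold wood, bark, needles and buds. In such a sample fewer cells of a type and less RNA per cell cannot be told apart. Genes used more strongly in one sex are commonly called sex-biased, and in plants the bias is best known from flowers and cones and is usually weaker in vegetative organs. Identifiers here follow the Trinity assembler, which builds transcripts from reads without a genome. The DN and c numbers together name a component, the unit that Trinity calls a read cluster, and the g number names a gene within it, so 1 plant gene can be spread over several entries. No gene name or sequence is paired with these identifiers in the files used here. The role of each member, and whether the tissue carried its usual marker genes, were not analysed here.

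The 6 libraries summed to between 997065 and 998035 TPM, and the read depth behind them is unknown. Female tree 2 stood apart, with 1215 genes of 1 TPM or more that were listed at 0 in the other 5 libraries, while the other libraries had 3 to 12 such genes. None of those genes can be a member. Male tree 1 and female tree 1 had the lowest medians over all genes, 3.78 and 3.23 TPM, against 4.20 to 5.25 TPM in the other 4 libraries.

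The conditions narrowed the table in steps. Of the 15618 genes that were alone in their component, 4641 had at least 10 TPM in each male tree, and 62 of these (1.34%) met the 3-fold condition. The same rule with the sexes exchanged found 33 genes among 4325 (0.763%). Dropping the condition on components gave 217 genes, 155 of them with another listed gene in the component. Without male tree 1 the rule found 127 genes, and without female tree 2 it found 76 genes. After TMM-type scaling (a common factor per library from a trimmed mean of log ratios) it found 57 genes in the male direction and 38 in the female direction, and 55 of the 57 were among the 62.

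**Figure D1:**
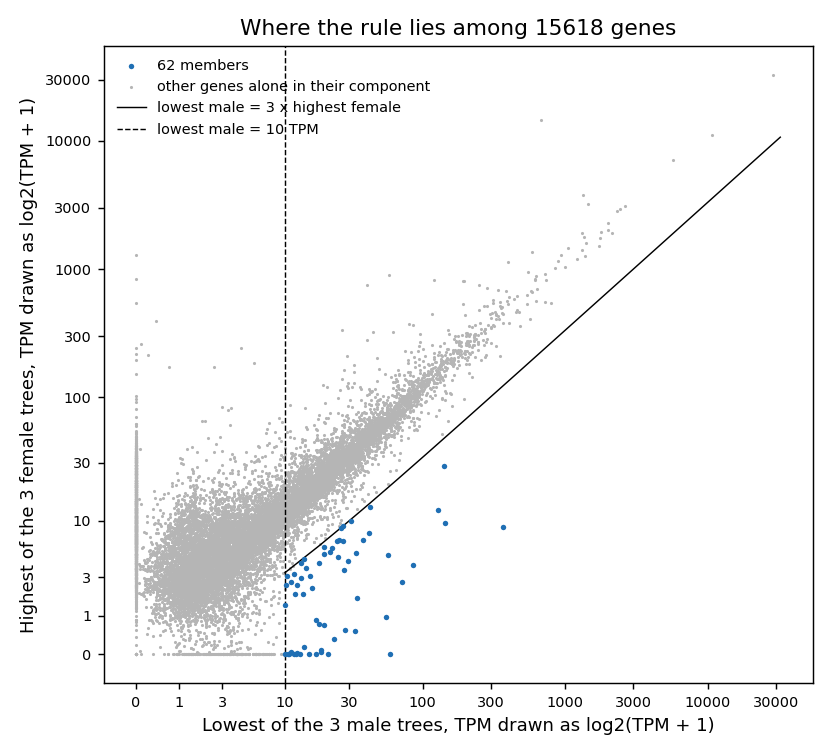
Lowest of the 3 male values (horizontal) against highest of the 3 female values (vertical) for the 15618 genes alone in their component, both in TPM drawn as log2(TPM + 1). The 62 members lie right of the dashed line at 10 TPM and below the solid line at which the lowest male value is 3 times the highest female value.

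The thresholds cut through a continuous range of values. The member closest to the 3-fold limit had 27.4, 29.3 and 26.01 TPM in male trees 1, 2 and 3, against 8.25, 7.9 and 8.66 TPM in female trees 1, 2 and 3. Its lowest male value was 3.003 times its highest female value. Just outside, a gene had 13.2, 12.5 and 10.99 TPM in male trees 1, 2 and 3, against 3.67, 3.63 and 3.30 TPM in female trees 1, 2 and 3, a ratio of 2.99. At the 10 TPM limit the closest member had a lowest male value of 10.04 TPM, and the closest gene outside had 9.92 TPM. The most abundant member averaged 243 TPM over the 6 trees, while the last of the 100 most abundant genes averaged 982 TPM, so this last condition was far from the members.

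The members were of moderate abundance. Their mean in male trees had a median of 23.4 TPM and ran between 11.2 and 480.2 TPM. It lay at 100 TPM or more in 4 members, between 50 and 100 TPM in 7, between 20 and 50 TPM in 26 and under 20 TPM in 25. All 62 together held 0.261% ± 0.0250 of the TPM in male trees and 0.0179% ± 0.000657 in female trees (SD, n = 3 each). By tree, their summed level was 2344, 2614 and 2840 TPM in male trees 1, 2 and 3, against 186, 174 and 175 TPM in female trees 1, 2 and 3. The median member stood at 21.9, 22.4 and 25.1 TPM in male trees 1, 2 and 3, against 1.75, 1.71 and 1.94 TPM in female trees 1, 2 and 3. The female trees thus differed little in the sum, while male tree 3 exceeded male tree 1 in both the sum and the median.

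**Figure D2:**
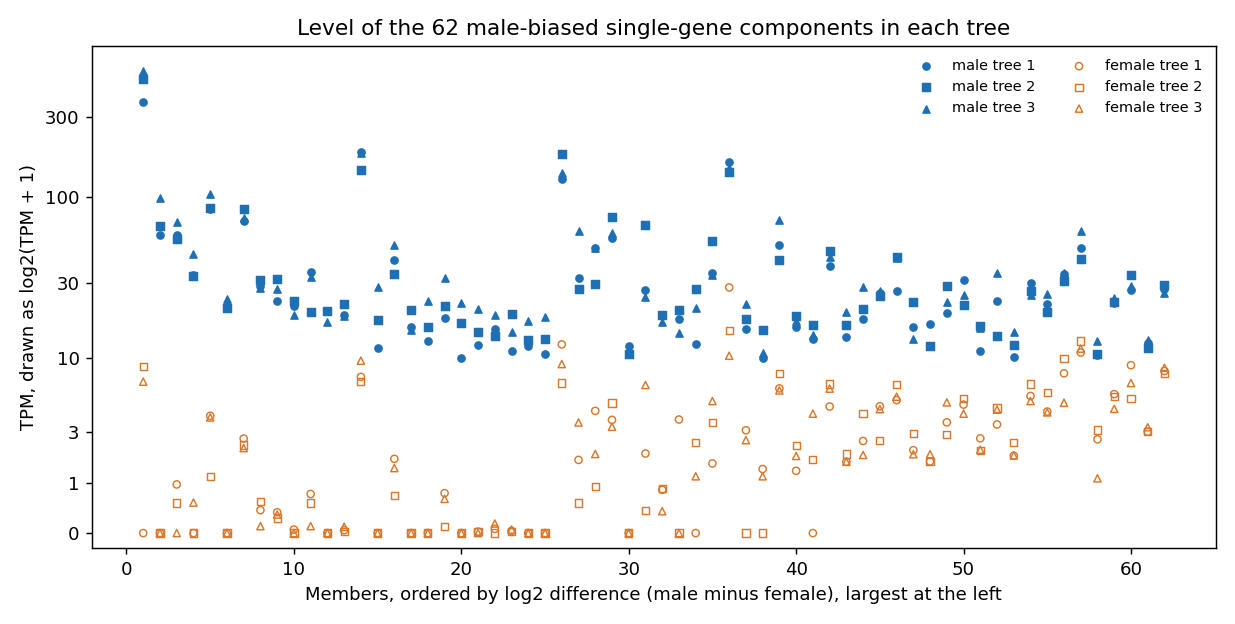
Level of each of the 62 members in the 3 male trees (filled) and the 3 female trees (open), in TPM drawn as log2(TPM + 1). Members are ordered from left to right by falling log2 difference, male minus female, between 6.79 and 1.62. The male and female points of a member never overlap, as the rule requires, and female points at or near 0 are frequent among the first 25 members.

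The member with the largest difference was TRINITY_DN30719_c0_g1, with 369, 505 and 567 TPM in male trees 1, 2 and 3, against 0, 8.87 and 6.99 TPM in female trees 1, 2 and 3. It was also the most abundant member, and its log2 difference on the log2(TPM + 1) scale was 6.79 (male minus female, as for every difference below). Its listed 0 in female tree 1 weighs on that value, which was 5.74 without this tree and 7.995 with a pseudocount of 0.1 in place of 1. TRINITY_DN1256_c0_g1 came second, with 58.6, 66.6 and 98.2 TPM in male trees 1, 2 and 3, against 0 TPM in each of the 3 female trees. Its log2 difference was 6.20, a value that depends on the pseudocount (9.51 with 0.1), and since all 3 female trees are listed at 0 no fold is given for it.

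The other 3 members of 100 TPM or more in male trees were all clearly present in female trees as well. The second most abundant had 186, 145 and 183 TPM in male trees 1, 2 and 3, against 7.53, 7.01 and 9.65 TPM in female trees 1, 2 and 3. The third had 162, 141 and 149.7 TPM in male trees 1, 2 and 3, against 28.1, 15.2 and 10.4 TPM in female trees 1, 2 and 3. The fourth had 128, 182 and 139.8 TPM in male trees 1, 2 and 3, against 12.3, 6.85 and 9.17 TPM in female trees 1, 2 and 3. On the log2(TPM + 1) scale the female SD exceeded the male SD in all 3, and most in the second of them (0.683 against 0.0975). In TPM the SD of that second member was 9.16 in female trees and 10.3 in male trees. Its male trees lay within a factor of 1.15 of each other. These 3 members and TRINITY_DN30719_c0_g1 made up 36.6% of the summed level of the list in male trees.

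The level in female trees divided the list into bands. In 10 members all 3 female trees were listed at 0. In 12 the highest female tree was above 0 but under 1 TPM, in 22 it lay between 1 and 5 TPM, and in 18 at 5 TPM or more. These bands were set after the values were seen, and so were the examples in each band beyond its most abundant members.

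Members listed at 0 in all female trees were mostly weak in male trees, but this was not particular to them. The median of their male means was 17.25 TPM, against 18.1 TPM in the 22 members whose highest female tree lay between 1 and 5 TPM. Apart from TRINITY_DN1256_c0_g1, with a mean of 74.5 TPM in male trees, the members listed at 0 averaged 11.2 to 22.1 TPM. The next most abundant of them had 21.5, 20.99 and 23.8 TPM in male trees 1, 2 and 3, against 0 TPM in each of the 3 female trees. A pair of the 10 varied more than 2-fold over the male trees. One of the pair had 11.7, 17.6 and 28.1 TPM in male trees 1, 2 and 3, against 0 TPM in each of the 3 female trees. The other had 10.04, 16.9 and 22.4 TPM in male trees 1, 2 and 3, against 0 TPM in each of the 3 female trees. In both, male tree 1 was lowest and male tree 3 highest. The weakest member of the whole list also belongs here, with 12.0, 10.8 and 10.8 TPM in male trees 1, 2 and 3, against 0 TPM in each of the 3 female trees. At such levels the unknown depth limits what a listed 0 shows.

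Another 12 members had a trace in female trees. Their means in male trees ran between 15.0 and 61.5 TPM, with a median of 22.6 TPM. The most abundant had 58.5, 55.3 and 70.8 TPM in male trees 1, 2 and 3, against 0.95, 0.51 and 0 TPM in female trees 1, 2 and 3. It was followed by a member with 33.4, 33.1 and 44.9 TPM in male trees 1, 2 and 3, against 0, 0 and 0.52 TPM in female trees 1, 2 and 3. In both of these part of the female trees were listed at 0. In the next, each female tree carried a little, with 28.5, 31.2 and 27.7 TPM in male trees 1, 2 and 3, against 0.37, 0.54 and 0.1 TPM in female trees 1, 2 and 3. The smallest trace was in a member with 12.2, 14.7 and 20.6 TPM in male trees 1, 2 and 3, against 0.02, 0.02 and 0 TPM in female trees 1, 2 and 3, where female values of 0.02 TPM are close to the last of the 2 deposited decimals. Ratios of means are unstable at such values and are not used for these members.

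In the 22 members whose highest female tree lay between 1 and 5 TPM, the mean of male trees was 4.02 to 32.6 times the mean of female trees, with a median of 9.40. The most abundant of these had 84.9, 85.3 and 103 TPM in male trees 1, 2 and 3, against 4, 1.18 and 3.89 TPM in female trees 1, 2 and 3. Another, with 71.7, 84.2 and 74.5 TPM in male trees 1, 2 and 3, against 2.66, 2.35 and 2.21 TPM in female trees 1, 2 and 3, had close values within each sex. One more had 56.7, 75.1 and 60.4 TPM in male trees 1, 2 and 3, against 3.73, 4.96 and 3.3 TPM in female trees 1, 2 and 3. Some members of this band were listed at 0 in part of the female trees. One such member had 17.97, 20.4 and 14.5 TPM in male trees 1, 2 and 3, against 3.75, 0 and 0 TPM in female trees 1, 2 and 3. Its female value came from 1 tree alone.

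The 18 members with 5 TPM or more in a female tree had means of 22.5 to 480.2 TPM in male trees, and TRINITY_DN30719_c0_g1 is one of them. Their ratio of male to female means had a median of 6.32 and began at 3.33. One had 49.2, 42.1 and 62.2 TPM in male trees 1, 2 and 3, against 10.9, 12.96 and 11.6 TPM in female trees 1, 2 and 3. Another had 22.5, 22.9 and 24.2 TPM in male trees 1, 2 and 3, against 5.73, 5.49 and 4.5 TPM in female trees 1, 2 and 3, with male trees within a factor of 1.07 of each other. One more had 51.4, 41.6 and 72.01 TPM in male trees 1, 2 and 3, against 6.28, 7.9 and 6.08 TPM in female trees 1, 2 and 3. In these 3 the female trees stayed close together, and in the last of them male tree 3 was well above male tree 2. A less even member of this band had 27.1, 67.9 and 24.4 TPM in male trees 1, 2 and 3, against 1.98, 0.36 and 6.63 TPM in female trees 1, 2 and 3, the widest range over male trees in the list.

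Counted over trees, 41 members were above 0 in all 3 female trees, 8 were listed at 0 in 1 of them, 3 in 2 and 10 in all 3. The number of members listed at 0 was 14, 16 and 14 in female trees 1, 2 and 3, and the number under 1 TPM was 25, 29 and 23. No member was under 10 TPM in a male tree, by the rule.

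In a fit over all 41430 tested genes, with limma on log2(TPM + 1) and a Benjamini-Hochberg adjusted p under 0.05, all 62 members were called higher in male trees. Over all tested genes 6.94% were called in that direction. The rule and the fit use the same values, so nothing is read from this count. The median log2 difference was 3.54 over the members, against 0.11 over all tested genes. The scalings moved the median over all tested genes by -0.09 (TMM-type) and -0.09 (quantile), with the median of the members at 3.45 and 3.49. With a pseudocount of 0.1 in place of 1 the fit called 56 of the 62 higher in male trees, and 2388 of all 41430 tested genes. Without male trees 1, 2 and 3 in turn it called 58, 58 and 56 members, and 2262, 1648 and 1559 of all tested genes.

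The rule sets a limit on the lowest male value and none on how far the other male trees lie above it. Genes in which 1 male tree falls low are left out, so the spread and order of the male trees are not free of the rule. Without male trees 1, 2 and 3 in turn the rule found 127, 76 and 83 genes, against 62 with all trees. The members' TPM had a median coefficient of variation of 18.4% over the 3 male trees. It was 7.63% in the other 4579 genes that were alone in their component with at least 10 TPM in each male tree. Over all 41430 tested genes it was 28.4%. Neither of these sets was matched to the members by level. On the log2(TPM + 1) scale the median SD was 0.249 in male trees and 0.216 in female trees for the members. For the 4579 other genes it was 0.106 in male trees and 0.156 in female trees. The female SD is 0 in the 10 members listed at 0 in all female trees. The rule keeps the members' female values low, where the pseudocount flattens them, so their SD in the sexes is not compared on equal terms. For the members the order of the sexes was not stable: with a pseudocount of 0.1 the median SD was 0.262 in male trees and 0.293 in female trees. Over the remaining pair it was 0.174 in male trees without male tree 2 and 0.172 without male tree 3. Both were under the 0.216 of the 3 female trees. In female trees it was 0.102 without female tree 2. An SD over 2 trees tends to be lower than one over 3, so these values do not show which sex varied more. The highest male value was less than 1.1 times the lowest in 2 members, less than 1.5 times in 40 and less than 2 times in 56. The 155 genes that met the same thresholds but share their component with another listed gene had a median coefficient of variation of 17.3%.

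The widest ranges were not all due to the same tree. The member with 67.9 TPM in male tree 2, given above, had 2.79 times its lowest male value there. Male tree 3 was high in a member with 31.98, 27.4 and 61.9 TPM in male trees 1, 2 and 3, against 1.73, 0.51 and 3.56 TPM in female trees 1, 2 and 3. Male tree 2 was low in another, with 23.2, 14.04 and 34.5 TPM in male trees 1, 2 and 3, against 3.44, 4.57 and 4.44 TPM in female trees 1, 2 and 3. Against these, the steadiest member had 26.1, 24.8 and 26.6 TPM in male trees 1, 2 and 3, against 4.7, 2.56 and 4.48 TPM in female trees 1, 2 and 3.

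Male tree 3 was the highest of the male trees in 30 members, male tree 2 in 23 and male tree 1 in 9. In the other 4579 well-expressed genes the trees were nearly even, with male trees 1, 2 and 3 highest in 37.6%, 32.4% and 29.98%. Relative to the mean of the 3 male trees, the median member stood at 0.921, 0.971 and 1.05 in male trees 1, 2 and 3, and the median of those other genes at 1.01, 0.999 and 0.991. The 155 genes that met the same thresholds in components with other listed genes were closer to the members: male trees 1, 2 and 3 were highest in 16.8%, 40.6% and 42.6% of them, with medians of 0.925, 1.01 and 1.02 relative to the mean of the male trees. Over all 41430 tested genes male tree 1 was highest in 23.8% and lowest in 50.1%. It was lowest in 48.4% of the members and 58.1% of the 155 genes, but in 29.0% of the other 4579 genes. These sets were not matched by level, and the cause of the position of this tree was not tested. After TMM-type scaling male trees 1, 2 and 3 were highest in 18, 17 and 27 members, and after quantile normalization in 13, 22 and 27. The count for male tree 1 thus depends on the scaling. Its order with male tree 2 turned under TMM-type scaling but not under quantile normalization. Male tree 3 was highest in the most members under both. Among the 52 members above 0 in a female tree, female trees 1, 2 and 3 were highest in 19, 20 and 13. Members are not replicates, and no test was made of these counts.

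**Figure D3:**
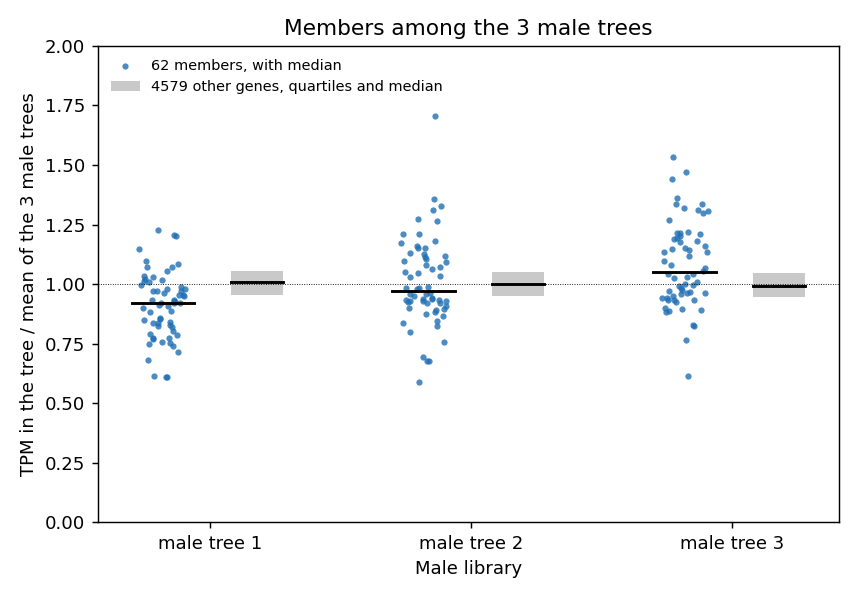
Level in each male tree divided by the mean of the 3 male trees, for the 62 members (points, with a bar at the median) and for the 4579 other genes alone in their component with at least 10 TPM in each male tree (box between the quartiles, with a bar at the median). Between their quartiles the members spread wider than the other genes in each tree. The median of the members lies at 0.921 in male tree 1 and 1.05 in male tree 3. The full range of the other genes, which is not drawn, was wider in each tree. In male tree 3 it was 0.283 to 1.91, against 0.612 to 1.53 for the members.

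The rule used the assembly identifiers to keep genes alone in their component, but not whether components share a DN number. No 2 members shared a DN number. The c number was 0 in 49 of the 62 (79.0%), against 87.7% of the genes alone in their component with at least 10 TPM in each male tree, and the g number was 1 in all 62, as in 15430 of the 15618 genes alone in their component. For 45 members no other listed gene carried the DN number. The other 17 (27.4%) shared it with genes of other components, against 13.1% of the other well-expressed genes alone in their component whose DN number no member carries. Of the 33 genes of the rule with the sexes exchanged, 10 (30.3%) shared theirs, so such a share was not particular to the members. What a shared DN number alone stands for is not stated by the labels or files.

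Genes that share a member's DN number but not its c number are called its neighbours here. They numbered 73 genes in 30 components, and 70 of them were tested. Limma called 16 of the 70 higher in male trees (22.9%), against 6.94% of all tested genes, and 5 higher in female trees (7.14%), against 4.71% of all tested genes. Around the other well-expressed genes alone in their component, the same count gave 118 higher in male trees (6.54%) and 101 higher in female trees (5.60%) of 1804 neighbours. For the 33 genes of the rule with the sexes exchanged it gave 3 higher in male trees and 8 higher in female trees of 42. The median log2 difference of the 70 was 0.27, against 0.11 over all tested genes. Single libraries moved it: leaving out female tree 1 gave 0.18, male tree 1 gave 0.42 and female tree 2 gave 0.41. Neighbours come from the same 6 trees, reads may have been divided between their components, and genes of 1 DN number may not be independent, so no test of these shares was made.

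The 16 calls fell under 8 of the 17 DN numbers, and 1 DN number held 5 of them. Without it 11 of 62 neighbours were called higher in male trees. The 5 calls higher in female trees were 2 without male tree 2 or female tree 3, 3 without male tree 1 or 3, and 8 after quantile normalization. Under 3 DN numbers neighbours were called in both directions, and under 8 none was called. Of the 16, 9 were listed at 0 in all female trees. The female SD of these 9 is 0, so their SE and adjusted p hold no measured spread of the female trees. Of the same 16, 6 averaged 10 TPM or more in male trees. Among the neighbours, 4 met every threshold of the members except that their component holds other listed genes.

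**Figure D4:**
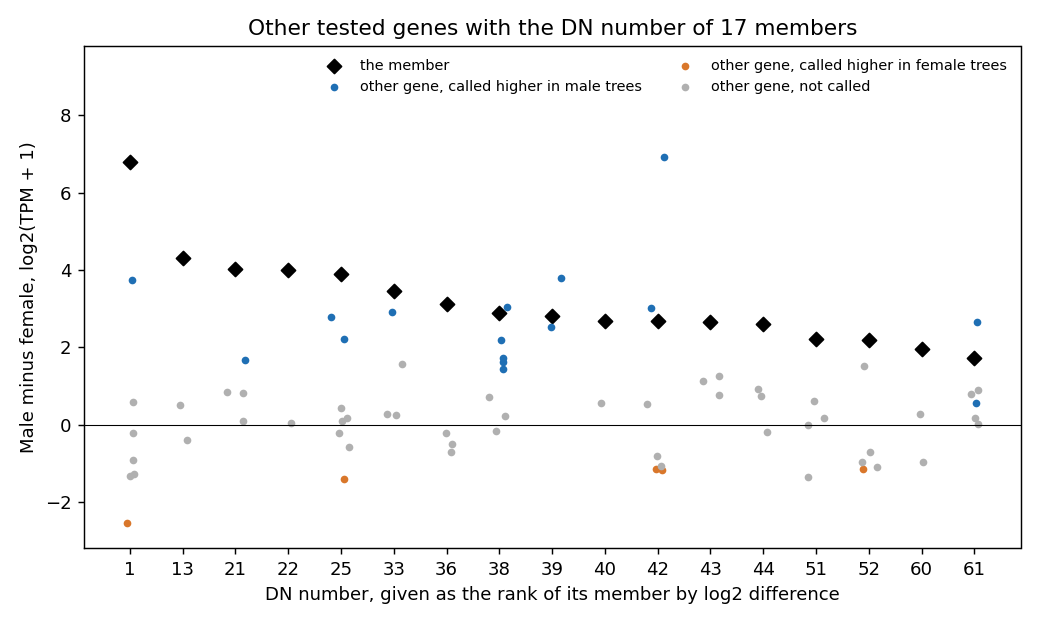
Difference in log2(TPM + 1), male minus female, for the 17 members whose DN number is shared by other tested genes (black diamonds) and for those 70 other genes (points), by DN number. Points are coloured by the limma call (adjusted p under 0.05): 16 were called higher in male trees and 5 higher in female trees.

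The neighbours described next were chosen after their values were seen. The strongest lay beside a member of middling size. The member had 37.8, 47.3 and 43.2 TPM in male trees 1, 2 and 3, against 4.68, 6.74 and 6.26 TPM in female trees 1, 2 and 3. Its neighbour had 231, 329 and 319 TPM in male trees 1, 2 and 3, against 1.18, 0.85 and 2.38 TPM in female trees 1, 2 and 3, a log2 difference of 6.93 ± 0.254 (SE; limma adjusted p = 0.000397). The groups were far apart in both, but the neighbour was higher than the member in male trees and lower in female trees. The same DN number also held 2 neighbours called higher in female trees, both under 4 TPM in every tree.

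TRINITY_DN30719_c0_g1 had neighbours in both directions. One had 67.5, 87.5 and 89.6 TPM in male trees 1, 2 and 3, against 3.52, 6.71 and 5.67 TPM in female trees 1, 2 and 3, a log2 difference of 3.74 ± 0.225 (SE; limma adjusted p = 0.000942). Another had 0.86, 0.87 and 2.79 TPM in male trees 1, 2 and 3, against 13.4, 12.3 and 12.9 TPM in female trees 1, 2 and 3, a log2 difference of -2.55 ± 0.339 (SE; limma adjusted p = 0.00608). In the second of these the female trees were the higher ones, with no overlap. The other 5 neighbours of this member were not called.

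One member had just 2 neighbours, and both were called higher in male trees. That member, with 51.4, 41.6 and 72.0 TPM in male trees 1, 2 and 3, was given above among those with 5 TPM or more in a female tree. The first neighbour had 56.5, 57.4 and 59.8 TPM in male trees 1, 2 and 3, against 6.41, 12.9 and 9.23 TPM in female trees 1, 2 and 3, a log2 difference of 2.53 ± 0.223 (SE; limma adjusted p = 0.00196). The other had 11.9, 10.5 and 16.7 TPM in male trees 1, 2 and 3, against 0 TPM in each of the 3 female trees, a log2 difference of 3.79 ± 0.286 (SE; limma adjusted p = 0.00169). Both were higher in all 3 male trees than in any female tree.

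The DN number with 5 calls held weak genes. Its member had 10.1, 15.2 and 10.8 TPM in male trees 1, 2 and 3, against 1.41, 0 and 1.18 TPM in female trees 1, 2 and 3. Of its 8 neighbours 5 were called higher in male trees, and the strongest of these had 8.92, 10.3 and 4.1 TPM in male trees 1, 2 and 3, against 0 TPM in each of the 3 female trees, a log2 difference of 3.05 ± 0.365 (SE; limma adjusted p = 0.00429). The other 4 called neighbours were under 5 TPM in every tree. Where all female trees are listed at 0, such a difference depends on the pseudocount and gives no fold.

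The 33 genes found with the sexes exchanged are set beside the members here. The median of the mean level was 23.4 TPM in male trees for the members and 35.9 TPM in female trees for those 33 genes. Of the members 16.1% were listed at 0 in all trees of the other sex, against 6.06% of the 33. The highest value in the other sex was 28.1 TPM among the members and 182 TPM among the 33. In the 155 genes with partners in their component the share listed at 0 in all female trees was 9.03%. These are descriptions of lists chosen on the same 6 libraries, and their differences were not tested.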

How the data were processed

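The authors deposited 1 table per library with 1 value per gene, rounded to 2 decimals. No header or label names the unit. The deposited values were taken as TPM, since they are not whole and every library has nearly the same sum, between 997065 and 998035. The assembler settings, the quantifier and any annotation are not stated by labels or headers. Read depth cannot be had from TPM, so counting intervals are not given.

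The tables were joined by identifier and the rule was applied to the TPM. Members and thresholds were chosen with earlier results of these data known. Male and female trees were compared with limma 3.58.1 (R 4.3.3) on log2(TPM + 1), with an intensity trend and sex as the only term. The 41430 genes with at least 1 TPM in 3 libraries were tested, two-sided, with Benjamini-Hochberg adjustment at 0.05 over all of them. The fit was tested on simulated data. Fold changes on this scale understate the change of low genes.

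Since no names are paired, only the 2 members with the largest log2 difference are named by identifier, and others by their place in an order. Alternatives were TMM-type and quantile scaling, other pseudocounts, filters and rule thresholds, no trend, a replicate block and each library left out.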

Additional observations from a re-analysis of the deposited data

How the results depend on the processing

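The number of members followed the thresholds: 151 at a floor of 5 TPM and 29 at 20 TPM, 109 at a ratio of 2 and 41 at 5, and 217 for any gene of a component. Each of the looser rules kept the 62. Either scaling, TMM-type or quantile, gave 57, with 55 of the 62 in each, and 70 to 127 with each library left out, which drops a condition and can only add genes. With the sexes exchanged these scalings gave 38 and 39 genes in that order. Calls higher in male trees over all tested genes, 2874, were 1602 of 20587 tested genes under the 5 TPM filter and 1559 to 2360 with each library left out; the other settings gave 2273 to 2601. Of the neighbours (genes sharing a member's DN number), 7 of 28 were called higher in male trees with the 5 TPM filter, 12 to 14 of 70 with each library left out, and 11 of 62 without the DN number with most calls, an alternative chosen after seeing the data. Members called were 56 to 62 under every setting. Some of these settings used fewer genes or libraries, and otherwise the cause was not tested.

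With the replicate number as a block 2273 genes, 61 members and 13 neighbours were called higher in male trees. Between male and female trees of one number, the deviations from the sex means had correlations of 0.175 (number 1), 0.0711 (number 2) and -0.0424 (number 3). Male trees 2 and 3 each correlated better with a female tree of another number (0.0766 and 0.105). Male tree 1 correlated best with the female tree of its own number. What trees of one number may share beyond the number was not tested. No log2 difference of the 2 members named by identifier and no median difference of the neighbours changed sign. The order of the sexes in the members' median SD turned with a pseudocount of 0.1. It also turned without male tree 2 or 3, where 2 male trees were set against 3 female trees. The order of male trees 1 and 2 in members highest turned under TMM-type scaling but not under quantile normalization. Unknown depth limits what a listed 0 shows.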
